A study of Bos grunniens with 18 samples.

Results

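The chaperones described here are 10 genes of the HSP70, HSP110 and HSP90 families in yak testis: HSPA1L, HSPA2, HSPA8, HSPA5 and HSPA9 of HSP70, HSPA4, HSPA4L and HSPH1 of the related HSP110 group, and HSP90AA1 and HSP90AB1 of HSP90. They were chosen by symbol from the deposited gene table, which holds 22183 genes. The rule used no measured value, but earlier results of these data were known when the genes were chosen. HSP90AB1 and HSPA8 also stand on 3 further identifiers, which were set aside because the most any of them held over the 9 libraries was 4 counts. All 10 genes passed the filter on low counts.

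HSP70 proteins bind unfolded stretches of other proteins and release them in a cycle driven by ATP, HSP110 proteins speed that cycle by exchanging nucleotide on HSP70, and HSP90 takes over partly folded clients such as kinases and steroid receptors. Most cells carry HSPA8 and HSP90AB1 all the time, HSPA5 works in the endoplasmic reticulum (ER) and HSPA9 in mitochondria. The testis is known for further copies: HSPA2 is needed for male meiosis in mice, HSPA1L is a testis copy of the heat-inducible HSP70 genes, HSPA4L is an HSP110 member abundant in male germ cells, and HSP90AA1 is needed by mouse spermatocytes.

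The tissue was testis removed by castration from 9 healthy male yaks of 1 cooperative. There were 3 animals at each of 3 ages, Y6M (6 months), Y18M (18 months) and Y4Y (4 years), and each gave 1 library depleted of ribosomal RNA. No agent or allele differed between the groups. Samples were grouped by title, because the stage given in another label runs against the ages: there Y4Y is infancy, Y6M is adolescence and Y18M is adulthood. The 9 small RNA libraries of the series were not used here. Reads were assigned to cattle gene identifiers, and whether counting used strand is not given in the sources used here.

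Gene libraries held 22.95 to 33.12 M estimated counts. Markers of the labelled tissue were present at every age: the summed level of 5 Leydig cell markers ran from 2393 to 20910.4 CPM (each gene's share of the tested counts of a library, per 1000000, after TMM scaling) and that of 5 Sertoli cell markers from 318 to 5519 CPM over the 9 libraries. The 5 spermatid markers PRM1, TNP1, ACRV1, SPACA1 and AKAP4 summed to 1.73 to 3.98 CPM at 6 months, with ACRV1 at 0 in at least 1 library, to 74.3 to 1546 CPM at 18 months and to 1653 to 2140.2 CPM at 4 years. The 18-month libraries stood further apart than those of the other ages. Y18M replicate 1 held 1546 CPM of spermatid and 383 CPM of Sertoli markers, replicate 3 held 562 and 691 CPM, and replicate 2 held 74.3 and 1223 CPM. Values below are CPM by library in the order of replicates 1, 2 and 3, and then the log2 fold change ± SE with the Benjamini-Hochberg adjusted p of edgeR's quasi-likelihood test over 16742 genes, with n = 3 per age. A gene is said to rise or fall only where the adjusted p was under 0.05. The comparisons with 6 months share the 6-month animals and are not independent of each other.

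Between 6 and 18 months 3 of the 10 genes rose, HSPA1L, HSPA2 and HSPA4L, 4 fell, HSPA8, HSPA5, HSPA9 and HSP90AB1, and HSPA4, HSPH1 and HSP90AA1 did not pass the test. Over all genes tested 59.9% passed, 32.7% higher and 27.1% lower, so 7 of 10 is a share not far above that background. Of the genes called, 54.7% were higher, and 72.6% with scaling by library size alone. The ages did not overlap for 7 of the 10 genes, against 65.1% of all genes. Between 6 months and 4 years HSPA1L, HSPA2 and HSPA4L rose, HSPA8, HSPA9 and HSP90AB1 fell, and 4 did not pass, where the background was 73.9%, 36.7% higher and 37.2% lower. Here 9 of the 10 genes did not overlap between the ages, against 83% of all genes. The median log2 fold change of the 10 genes was 0.12 at 18 months and 0.20 at 4 years, beside 0.02 and -0.06 over all genes, so the median tells little of a family with members on both sides.

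**Figure D1:**
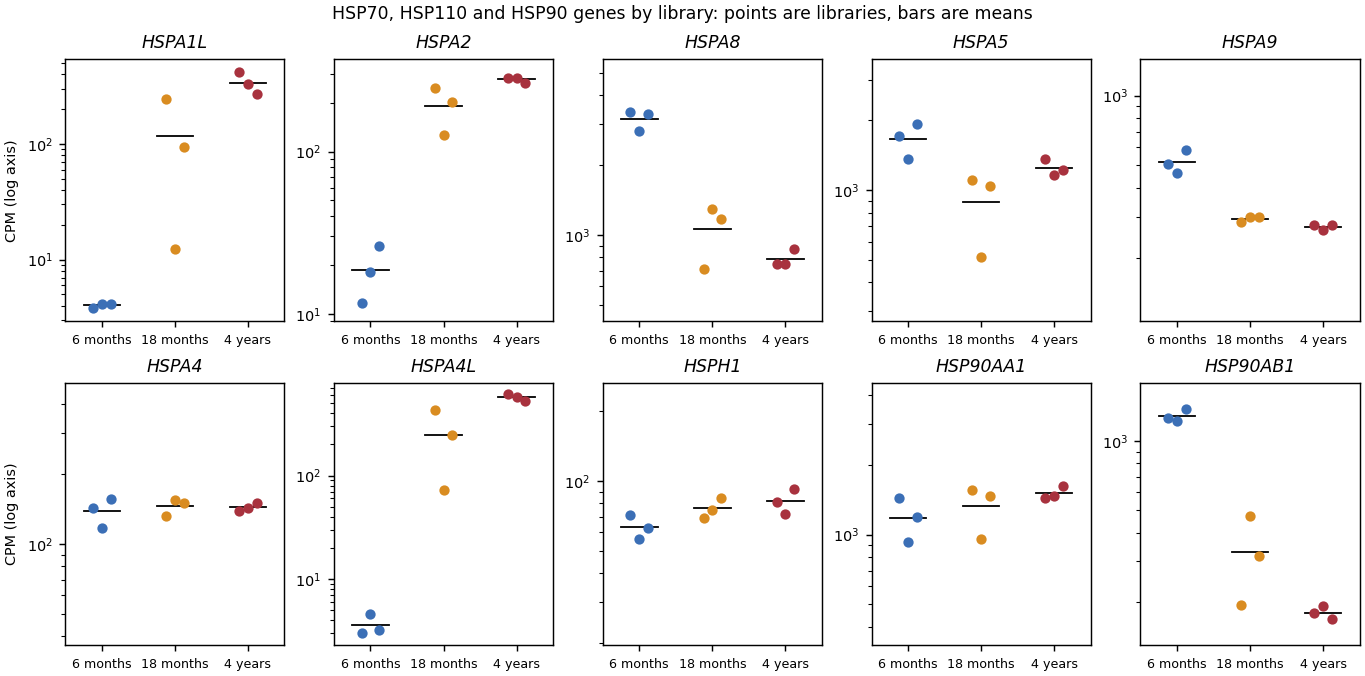
CPM of the 10 chaperone genes in every library (log axis, each panel with its own range), with points for libraries, bars for the mean of an age, and columns for 6 months, 18 months and 4 years. HSPA1L, HSPA2 and HSPA4L are higher in all 18-month and 4-year libraries than in any 6-month library. HSPA8, HSPA9 and HSP90AB1 are lower in all of them, as is HSPA5, by a narrow margin at 4 years. HSPA4 overlaps at every age.

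Of the 3 genes that rose, HSPA4L spanned the widest range. Its CPM was 3.0, 4.64 and 3.25 at 6 months, 427, 73.2 and 246 at 18 months and 607, 579 and 526 at 4 years. The 3 ages did not overlap, and the 18-month animals differed 5.83-fold among themselves where the 4-year animals differed 1.15-fold. HSPA4L rose by 6.10 ± 0.63 (adjusted p = 0.000122) by 18 months and by 7.29 ± 0.67 (adjusted p = 5.09e-05) by 4 years.

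HSPA1L, the testis copy of the inducible HSP70 genes, was at 3.80, 4.16 and 4.11 CPM at 6 months. At 18 months it was at 244, 12.3 and 94.2 CPM, so that the highest animal held 19.9 times the level of the lowest, and at 4 years at 416, 326 and 269 CPM. Again no age overlapped another. HSPA1L rose by 4.86 ± 0.90 (adjusted p = 0.00173) and by 6.39 ± 0.96 (adjusted p = 0.000389). The value at 18 months turned on single animals, at 3.73 without Y18M replicate 1 and 5.51 without Y18M replicate 2, and for HSPA4L the same omissions gave 5.47 and 6.65.

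HSPA2, the HSP70 protein of meiotic germ cells, was already present at 6 months, with 11.7, 18.0 and 26.3 CPM. It stood at 246, 127 and 202 CPM at 18 months and at 287, 285 and 266 CPM at 4 years. Among the 3 genes that rose, the 18-month level lay closest to the 4-year one for this gene: HSPA2 rose by 3.36 ± 0.35 (adjusted p = 0.000123) and by 3.904 ± 0.36 (adjusted p = 5.17e-05). All 3 genes had their lowest 18-month value in replicate 2 and their highest in replicate 1, the libraries with the lowest and the highest summed spermatid markers of that age. At 6 months the 4 meiotic markers SYCP1, SYCP3, STAG3 and MEIOC summed to 4.39 to 11.0 CPM, at 18 months to 359 to 738 and at 4 years to 668 to 831 CPM, and the part of either marker list in these results was not tested. In whole tissue, a change in how many cells of a type are present and a change of RNA per cell cannot be told apart.

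HSPA8, the constitutive cytosolic HSP70, was the most abundant of the 10 at 6 months, with 3394, 2799 and 3311 CPM. It fell to 717, 1297 and 1176 CPM at 18 months and 753, 749 and 869 CPM at 4 years, with every older library below every 6-month library. The log2 fold change was -1.57 ± 0.26 (adjusted p = 0.00101) and -2.00 ± 0.26 (adjusted p = 0.00021). The lowest value of all 9 was that of Y18M replicate 1.

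HSP90AB1, the constitutive HSP90, fell most of the 10 genes. Its CPM was 1256, 1219 and 1384 at 6 months, 194, 471 and 318 at 18 months and 179, 190.4 and 168 at 4 years. No age overlapped another, and Y18M replicate 2 was the highest of the older libraries. The log2 fold change was -1.97 ± 0.30 (adjusted p = 0.000687) by 18 months and -2.84 ± 0.31 (adjusted p = 9.93e-05) by 4 years. Both genes were highest at 18 months in replicate 2. That library also had the highest 18-month sums of Sertoli (1223 CPM), Leydig (5784 CPM), peritubular myoid (620.4 CPM) and fibroblast (274 CPM) markers. Other lists did not peak there. The endothelial sum was highest in Y18M replicate 3 (182 CPM, beside 126 in replicate 2). The macrophage and leukocyte sum was highest in Y18M replicate 1 (109 CPM, beside 86.9 in replicate 2), as were the erythroid and the rete testis and epididymis sums. From 6 months to 4 years the Sertoli sum went from 4894 to 5519 CPM to 318 to 366 CPM, the Leydig sum from 14400 to 20910.4 CPM to 2393 to 4309 CPM, and the fibroblast sum from 1464 to 1809 CPM to 104 to 128 CPM. The peritubular myoid sum was 81.4 to 171 CPM at 6 months and 145 to 161 CPM at 4 years. Its members went different ways: mean CNN1 went from 52.4 to 20.3 CPM, ACTA2 from 50.5 to 76.1 and MYH11 from 21.4 to 55.8. The Leydig sum was mostly INSL3, with means of 11277 CPM at 6 months and 3317 CPM at 4 years. The Sertoli sum was mostly INHA (mean 4099 CPM) and AMH (884 CPM) at 6 months, while CLDN11 of the same list went the other way, with means of 8.56, 289 and 202 CPM at the 3 ages, and was the largest part of the 4-year sum. The part of any of these lists in the result was not tested.

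HSP90AA1, the other cytosolic HSP90 copy, did not follow HSP90AB1. It stood at 1432, 932 and 1189 CPM at 6 months, 1564, 956 and 1468 at 18 months and 1434, 1462 and 1624 at 4 years. The 6- and 18-month ranges overlapped, whereas the lowest 4-year library was just above the highest 6-month library. The change was 0.17 ± 0.26 (95% interval -0.41 to 0.74, adjusted p = 0.591) and 0.35 ± 0.26 (-0.23 to 0.93, adjusted p = 0.242). HSP90AA1 had values that were not whole in all 9 libraries, so reads shared with another gene may have been split, and its level is less certain than that of the others. Scaling by library size alone, which moved the median log2 fold change of all genes by 0.40 at 18 months and 0.29 at 4 years, gave 0.65 (adjusted p = 0.0396) at 4 years. A fit of only the ages compared gave 0.47 (adjusted p = 0.0222), and leaving out Y18M replicate 2 gave 0.47 (adjusted p = 0.0351). Without Y6M replicate 2 the 4-year change was smaller, at 0.20. At 18 months single omissions moved the change from 0.02 without Y6M replicate 2 to 0.48 without Y18M replicate 2.

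HSPA5 (BiP), the HSP70 of the ER, was at 1708, 1361 and 1931 CPM at 6 months, 1106, 517 and 1039 CPM at 18 months and 1358, 1158 and 1220.2 CPM at 4 years. The lowest of the 9 libraries was Y18M replicate 2, and the 18-month libraries lay below those of both other ages. HSPA5 fell by 0.91 ± 0.30 (adjusted p = 0.0277) at 18 months, whereas at 4 years the change was -0.42 ± 0.30 (95% interval -1.10 to 0.26, adjusted p = 0.229). The 18-month call was lost with scaling by library size alone (-0.52, adjusted p = 0.132), with only the ages compared in the fit (-0.88, adjusted p = 0.075), and without Y6M replicate 1 (-0.89, adjusted p = 0.0725) or replicate 3 (-0.79, adjusted p = 0.0938). Without Y18M replicate 2 it was -0.52.

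HSPA9 (mortalin), the HSP70 of the mitochondrial matrix, was at 507, 462 and 582 CPM at 6 months, 285, 299.7 and 299 CPM at 18 months and 276, 262 and 276 CPM at 4 years. This was the gene with the least spread among the 18-month animals, 1.05-fold from lowest to highest. HSPA9 fell by 0.81 ± 0.16 (adjusted p = 0.00249) and by 0.93 ± 0.16 (adjusted p = 0.000826). With library size alone the 18-month change was -0.41 and no longer called (adjusted p = 0.059).

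HSPA4, the widely expressed HSP110 protein, was close to level over the 9 libraries at 143, 117 and 156 CPM, 132, 155 and 150.3 CPM, and 139, 143 and 149.8 CPM. The change was 0.07 ± 0.16 (95% interval -0.29 to 0.44, adjusted p = 0.71) at 18 months and 0.06 ± 0.16 (-0.31 to 0.43, adjusted p = 0.756) at 4 years. With library size alone HSPA4 passed at 18 months (0.49, adjusted p = 0.039), so the flat course depends on the scaling.

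HSPH1 (HSP105), the heat-inducible HSP110 protein, was at 71.4, 56.2 and 62.7 CPM at 6 months, 69.5, 75.1 and 84.5 CPM at 18 months and 81.5, 72.1 and 92.8 CPM at 4 years. The change was 0.27 ± 0.17 (adjusted p = 0.197) and 0.37 ± 0.17 (95% interval -0.01 to 0.76, adjusted p = 0.0719). This gene stood at the threshold at 4 years: it passed with library size alone (0.67, adjusted p = 0.011; at 18 months 0.67, adjusted p = 0.0141), with DESeq2 (0.55, adjusted p = 0.00451), with only the ages compared in the fit (0.49, adjusted p = 0.00886) and without Y18M replicate 2 (0.50, adjusted p = 0.0147).

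**Figure D2:**
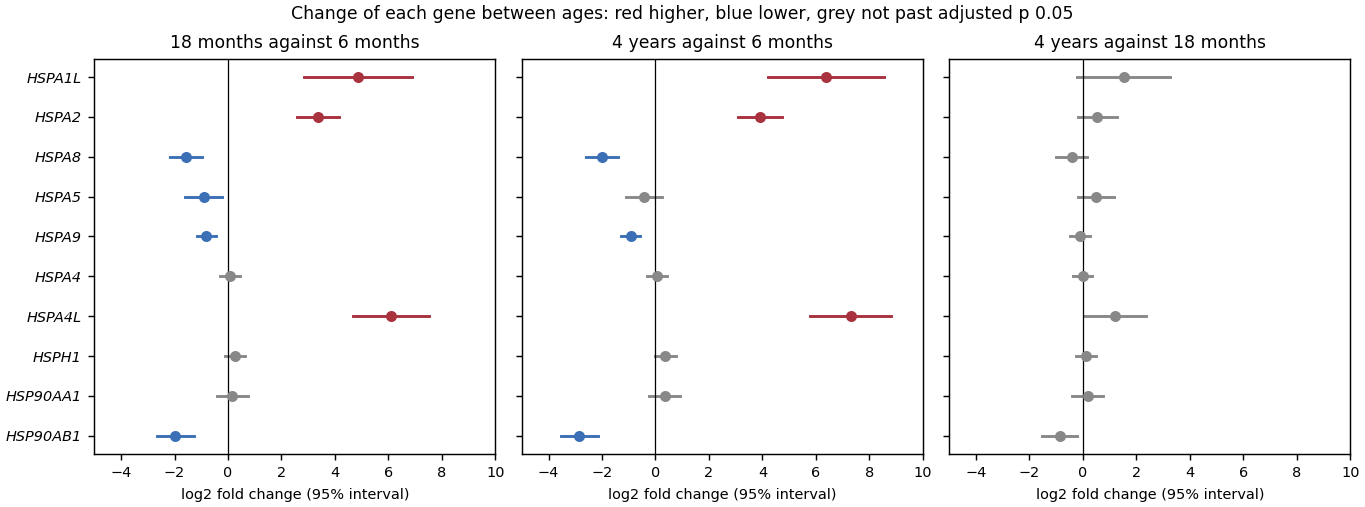
Log2 fold change of each chaperone gene (points) with its 95% interval (lines) in the 3 comparisons of ages, red for higher, blue for lower and grey for not past an adjusted p of 0.05. Against 6 months HSPA1L, HSPA2 and HSPA4L are red at both older ages, HSPA8, HSPA9 and HSP90AB1 are blue at both, and HSPA5 is blue at 18 months only. Every gene is grey for 4 years against 18 months.

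Between 18 months and 4 years none of the 10 genes passed edgeR's test, 2 had an unadjusted p under 0.05, HSPA4L and HSP90AB1, and DESeq2 called 0. Over all genes edgeR called 1 gene, 0.00597% of those tested, with 3572 at an unadjusted p under 0.05, while DESeq2 called 942. The largest differences were those of HSPA1L (1.53, 95% interval -0.21 to 3.27, adjusted p = 0.273), HSPA4L (1.20, 0.04 to 2.35, adjusted p = 0.223) and HSP90AB1 (-0.87, -1.53 to -0.20, adjusted p = 0.179). For HSPA2 it was 0.54 (-0.18 to 1.27), for HSPA5 0.49 (-0.19 to 1.17) and for HSPA8 -0.43 (-1.01 to 0.15). The remaining 4 genes lay between -0.12 and 0.18. In 6 of the 10 genes the 18-month and 4-year libraries did not overlap, against 25.4% of all genes. The result turned on single 18-month libraries. Without Y18M replicate 1, which had the highest spermatid marker sum of that age, edgeR called 5607 genes, where the fit of all libraries tested 16742. In that setting HSPA1L (2.66, adjusted p = 0.0244), HSPA4L (1.84, adjusted p = 0.0204), HSP90AB1 (-1.13, adjusted p = 0.00801) and HSPA8 (-0.64, adjusted p = 0.0298) passed. These calls are to be read against that large share of all genes. Without Y18M replicate 2, which had the lowest sum, the differences shrank to 1.00 for HSPA1L, 0.76 for HSPA4L, -0.51 for HSP90AB1, -0.25 for HSPA8, 0.33 for HSPA2 and 0.22 for HSPA5, and none passed.

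Levels of different genes were compared on the deposited FPKM, which divides by gene length. At 6 months the order of mean FPKM was HSPA8 at 1086 ± 91.4, HSPA5 at 506 ± 71.4, HSP90AB1 at 394 ± 13.1, HSP90AA1 at 317 ± 66.2, HSPA9 at 115 ± 8.15, HSPA4 at 22.1 ± 2.48, HSPH1 at 13.6 ± 1.59, HSPA2 at 5.73 ± 2.11, HSPA1L at 1.34 ± 0.0791 and HSPA4L at 0.643 ± 0.258 (SD, n = 3). Only HSP90AB1 and HSP90AA1 overlapped with their neighbour in that order. At 4 years HSP90AA1, whose level is less certain as said above, led at 524 ± 58.8, overlapping with HSPA5 at 485 ± 37.4, then HSPA8 at 347 ± 45.4. HSPA4L had moved from last place to the fourth at 162 ± 1.78 and overlapped with HSPA1L at 143 ± 26.5, above HSPA2 at 110.2 ± 0.411, HSPA9 at 82.1 ± 4.46, HSP90AB1 at 70.1 ± 2.70, HSPA4 at 29.5 ± 2.38 and HSPH1 at 22.6 ± 3.76. At 18 months the order was the least certain, since 7 of the 9 neighbouring pairs overlapped, from HSPA8 at 493 ± 161 and HSP90AA1 at 477 ± 103 down to HSPA1L at 50.3 ± 49.0, HSPA4 at 31.3 ± 4.07 and HSPH1 at 22.01 ± 2.88. The gene length implied by count and FPKM differed between libraries for HSPA4L by up to 1.67-fold, with Y6M replicate 1 apart from the rest, a ratio that 8.07% of genes exceed, so its FPKM at 6 months is less exact than the others.

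Because each library's FPKM share needs no scaling between libraries, the make-up of 3 sets of related genes was set out per library, a grouping made after the values were seen. Among the cytosolic HSP70 genes HSPA8, HSPA1A, HSPA6, HSPA2 and HSPA1L, HSPA8 made up 96.9, 95.7 and 96.5% of the summed FPKM at 6 months, 60.0, 86.4 and 78.4% at 18 months and 52.4, 55.4 and 62.1% at 4 years. HSPA1L went from 0.105 to 0.138% at 6 months to 18.6 to 28.1% at 4 years, and HSPA2 from 0.30 to 0.691% to 17.1 to 19.0%. The summed FPKM of the set was 1126 ± 88.4 at 6 months, 645 ± 109 at 18 months and 612 ± 31.3 at 4 years (SD, n = 3). Such sums are not on 1 scale between ages. FPKM over all genes summed to 604165 to 613116 at 6 months and 518587 to 538834 in the older libraries. Mean HSPA4 went from 22.1 FPKM at 6 months to 29.5 at 4 years, where its CPM was 138 and 144. HSPA1A held 1.38 to 4.75% in every library.

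The HSP110 set changed its leading gene. HSPA4 held 59.2, 59.0 and 63.8% at 6 months, 16.2, 45.1 and 26.2% at 18 months and 12.9, 13.7 and 14.6% at 4 years, while HSPA4L held 1.06, 2.82 and 1.59%, then 72.3, 25.6 and 54.0%, then 76.9, 77.1 and 73.2%. HSPH1 held 34.6 to 39.7% at 6 months and 9.24 to 12.2% at 4 years, although its CPM was not lower there. The summed FPKM was 36.4 ± 3.28, 122 ± 44.2 and 214 ± 4.77, with the same limit between ages. In the HSP90 pair, HSP90AA1 made up 50.02, 39.99 and 42.9% at 6 months, 87.6, 64.0 and 80.3% at 18 months and 87.7, 87.2 and 89.5% at 4 years, in a sum of 711 ± 67.0, 613 ± 54.8 and 594 ± 58.4 FPKM. These shares carry the limit given above for HSP90AA1, whose counts were not whole. In all 3 sets Y18M replicate 2 was the 18-month library nearest to 6 months and Y18M replicate 1 the nearest to 4 years.

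**Figure D3:**
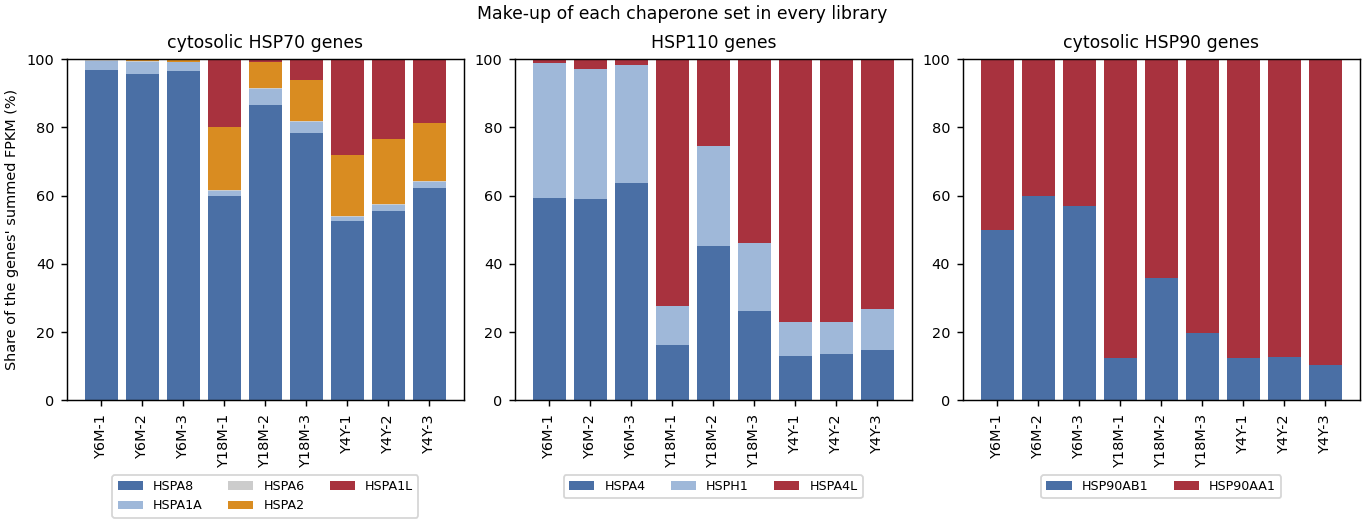
Share (%) of each gene in the summed FPKM of the cytosolic HSP70, HSP110 and cytosolic HSP90 sets, with a bar for each library by age and replicate. HSPA8, HSPA4 and HSP90AB1 (dark blue) take the largest share in the 6-month bars, except that the HSP90 pair is level in Y6M replicate 1, and HSPA4L and HSP90AA1 (red) the largest in the 4-year bars.

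The authors' deposited tables of differing genes list genes with a log2 ratio of mean FPKM beyond 1 in either direction. The largest FDR listed in any of them was 0.0499. The authors' deposited table for 18 months over 6 months, with 7668 genes, holds 5 of the 10 chaperones, at log2 ratios of 6.74 for HSPA4L, 5.23 for HSPA1L, 3.77 for HSPA2, -1.14 for HSPA8 and -1.53 for HSP90AB1. The authors' deposited table of 4 years against 6 months, with 10565 genes, holds these 5 too, and that of 4 years against 18 months holds 0 of the 10 among 247 genes. These counts are to be read against the background of all 22183 genes, of which 7668, 10565 and 247 were listed.

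Other chaperone genes were counted in 7 lists, which were drawn up with earlier results of these data known. As background to all 7 lists, 59.9% of all genes passed at 18 months, 32.7% higher and 27.1% lower. At 4 years the share was 73.9%, 36.7% higher and 37.2% lower. Of the male germ cell chaperones 9 of 9 tested rose in both comparisons with 6 months (median log2 fold change 5.61 at 18 months and 6.04 at 4 years), where 32.7% and 36.7% of all genes rose; the list was chosen for germ cell genes. FKBP6, a co-chaperone needed for meiosis in male mice, rose from 10.04 ± 4.14 CPM at 6 months to 490.0 ± 199 at 18 months and 623 ± 75.2 at 4 years. HSF5, a heat shock factor family member of spermatocytes that also stands in the list of heat shock factors, rose from 2.47 ± 1.19 to 110.3 ± 54.4 and 163 ± 9.66 CPM. Of the 5 genes on the heat shock factor list (HSF1, HSF2, HSF4, HSF5 and the factor-binding HSBP1) 3 rose in each comparison and 0 fell (median 0.73 and 1.00). HSF1, the main regulator of the heat shock response, rose from 28.5 ± 5.10 to 112 ± 4.32 and 107 ± 11.5 CPM, by 1.97 ± 0.18 (adjusted p = 7.97e-05) and 1.91 ± 0.18 (adjusted p = 5.7e-05).

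Among the other HSP70 and HSP90 family genes 2 rose and 4 of 9 tested fell at 18 months, and 2 rose and 5 fell at 4 years (median -0.94 and -0.63). The background was 59.9% and 73.9% of all genes passing. TRAP1, the mitochondrial HSP90, rose from 52.1 ± 7.54 to 142 ± 30.2 and 155 ± 23.5 CPM, against the fall of its matrix neighbour HSPA9. HYOU1, the HSP110 protein of the ER, rose from 141 ± 11.7 to 442 ± 136 and 521 ± 73.1 CPM, whereas HSP90B1 (GRP94), the ER HSP90, fell from 2086 ± 434 to 691 ± 122 CPM at 18 months (-1.59 ± 0.24, adjusted p = 0.000599). HSPA13 fell by 0.94 ± 0.19 at 18 months, and HSPA12A and HSPA12B, distant HSP70 relatives, fell by 2.47 ± 0.32 and 2.03 ± 0.34 at 4 years. HSPA1A, the heat-inducible HSP70, was outside the rule for named genes and is given because it enters the cytosolic set above: it stood at 103 ± 6.32, 49.4 ± 30.0 and 26 ± 3.93 CPM and fell by 1.99 ± 0.43 (adjusted p = 0.00278) by 4 years, while at 18 months the change was -1.06 ± 0.42 (adjusted p = 0.0539).

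In the list of HSP70 nucleotide exchange and regulation 3 of 11 rose and 2 fell at 18 months, and 5 rose and 2 fell at 4 years (median 0.30 and 0.60). Of all genes, 59.9% and 73.9% passed. At 18 months 6 were higher and 1 lower with library size alone, and 7 were higher without Y18M replicate 2. BAG6, whose loss in mice removes HSPA2 protein from the testis, rose from 236 ± 50.3 to 1197 ± 404 and 1501 ± 167 CPM. HSPBP1, an exchange factor that opposes HSP70, rose from 7.93 ± 0.620 to 15.3 ± 0.850 and 15.1 ± 1.33 CPM. BAG2 fell from 46.7 ± 4.96 to 24.0 ± 4.45 and 16.3 ± 1.38 CPM, and ST13 (HIP), which stabilises the ADP state of HSP70, from 194 ± 17.8 to 102 ± 15.6 and 88.6 ± 2.19 CPM.

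Of 20 HSP90 co-chaperones 5 rose and 1 fell at 18 months, and 6 rose and 5 fell at 4 years (median 0.16 and 0.09). These shares lie below the background of 59.9% and 73.9% of all genes passing. The count of 5 is unstable: it was 10 with library size alone, 8 with DESeq2, 3 with only the ages compared and 3 to 7 with 1 library left out, the highest without Y18M replicate 2. FKBP4 (FKBP52), an immunophilin of steroid receptor complexes, rose from 200.2 ± 43.8 to 899.8 ± 169.9 and 869.6 ± 49.6 CPM, by 2.17 ± 0.24 (adjusted p = 0.000147) at 18 months. FKBP8 rose by 0.75 ± 0.17 and 0.88 ± 0.17, SUGT1 fell by 0.64 ± 0.15 at 18 months, and UNC45A, a myosin chaperone, and TTC4 fell by 1.47 ± 0.31 and 0.76 ± 0.18 at 4 years. FKBP8, HSPE1 and CCT5 stand on 2 identifiers each, of which the one with the most counts was used.

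Of 16 chaperonins and small heat shock proteins 3 rose and 6 fell at 18 months, and 4 rose and 9 fell at 4 years (median -0.98 and -1.39, beside 0.02 and -0.06 over all genes). The background was 59.9% and 73.9% passing, with 27.1% and 37.2% of all genes lower. The balance depends on the scaling: with library size alone 6 were higher and 3 lower at 18 months, and 7 were higher and 9 lower at 4 years. Leaving out 1 library gave 1 higher at 18 months without Y6M replicate 2 and 6 without Y18M replicate 2. The mitochondrial co-chaperonin HSPE1, partner of HSPD1, fell from 95.9 ± 17.3 to 18.7 ± 5.71 and 12.3 ± 2.08 CPM. Subunits of the cytosolic CCT ring did not move alike: CCT2 rose by 1.3 ± 0.37 and 1.78 ± 0.37 and CCT5 by 1.04 ± 0.21 and 1.20 ± 0.21, whereas CCT6A fell by 1.19 ± 0.20 at 18 months. HSPB2, a small heat shock protein of muscle, fell from 8.58 ± 0.847 to 0.853 ± 0.137 CPM at 4 years.

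Of 20 genes of the ER and the unfolded protein response 7 rose and 9 fell in each comparison with 6 months (median -0.45 and -0.13). The background was 59.9% of all genes passing at 18 months and 73.9% at 4 years. At 18 months 4 were higher with only the ages compared, and also when any of the 6-month libraries, Y18M replicate 1 or Y18M replicate 3 was left out. The disulfide isomerase P4HB fell from 2083 ± 177 to 407 ± 81.3 and 347 ± 36.9 CPM, and EIF2AK3 (PERK), a sensor of ER stress, from 59.3 ± 9.60 to 10.1 ± 2.25 and 6.68 ± 0.495 CPM. SDF2L1, a partner of HSPA5, rose from 7.82 ± 1.602 to 41.2 ± 4.08 and 44.5 ± 9.61 CPM, and CRELD2 from 57.6 ± 5.56 to 158 ± 33.5 and 174 ± 14.8 CPM. Between 18 months and 4 years 0 genes of the 7 lists passed edgeR's test, with 0 to 6 per list at an unadjusted p under 0.05, and DESeq2 called 4 genes in all.

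**Figure D4:**
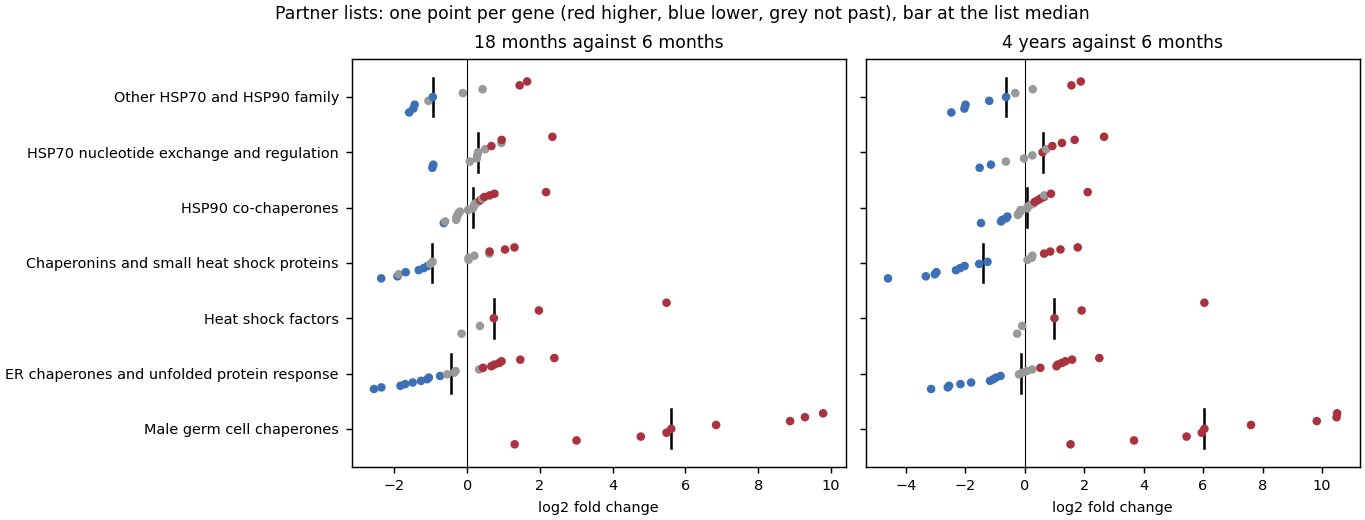
Log2 fold change of each gene of the 7 partner lists at 18 months (left) and 4 years (right) against 6 months, with red for higher, blue for lower, grey for not past an adjusted p of 0.05, and a black bar at the list median. The 9 male germ cell chaperones are all red, with medians of 5.61 and 6.04, and the other lists except the heat shock factors hold genes of both colours.

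The course of each chaperone over the 9 libraries was set beside that of 14189 to 14190 other genes by the Euclidean distance between log2 CPM values centred on each gene's mean, where 0 is an identical course. This is a description with no test, and library depth and tissue make-up are shared by all genes. Nearest to HSPA1L were CNGB1 (0.52) and LELP1 (0.54, listed at 0 CPM at 6 months), nearest to HSPA2 were REEP2 (0.43) and TMEM132B (0.57), and nearest to HSPA4L were LRRC63 (0.58) and C15H11orf91 (0.66, at 0.014 CPM at 6 months). The prior count of 2 in log2 CPM flattens values near 0. Fitted changes by 4 years were 6.70 for CNGB1 and 10.34 for LELP1, beside 6.39 for HSPA1L. They were 7.78 for LRRC63 and 9.81 for C15H11orf91, beside 7.29 for HSPA4L. For the genes that fell they were HSD17B12 (0.26) and PDHA1 (0.29) for HSPA8, NPAS2 (0.16) and CNP (0.23) for HSP90AB1, SARAF (0.37) and SLC17A5 (0.37) for HSPA5, and TXNDC12 (0.17) and COPE (0.21) for HSPA9. The nearest to HSPA4 were SEC23IP (0.20) and PDS5B (0.21), to HSPH1 PLEKHF2 (0.18) and EIF5A2 (0.20), and to HSP90AA1 CUL5 (0.33) and BCCIP (0.36). Genes with a symbol on several identifiers, HSPA8 and HSP90AB1 among them, could not be named as neighbours.

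The same libraries were read for circular RNAs (circRNAs), closed by a back-splice that joins a downstream exon end to an upstream exon start. The circRNA table held 119.8 to 227.2 k back-splice reads per library, of which 5.37% have no source gene. It assigns 47 circRNAs with 1668 reads to 9 of the 10 chaperone genes, and HSPA2 had 0 reads. HSPA4 held 17 circRNAs with 1393 reads, 83.5% of the total, and HSPA4L 13 with 225 reads, 13.5%. The other 7 genes had 5 to 9 reads each over all 9 libraries, too few for a comparison, although HSPA8 and HSPA5 were among the most abundant by FPKM.

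HSPA4 gave 442, 648 and 592 back-splice reads per 1000000 (RPM) at 6 months, 548, 1563 and 944 RPM at 18 months and 956, 1001 and 1110.3 RPM at 4 years. All 4-year libraries were above all 6-month libraries, and the 18-month ones spanned both, with Y18M replicate 2 the highest. Over 3389 source genes tested, 11% passed at 18 months, 31.1% at 4 years against 6 months and 0.0295% between 18 months and 4 years. The change in HSPA4 circRNA reads was 0.89 ± 0.37 (adjusted p = 0.147) at 18 months and 1.01 ± 0.38 (95% interval 0.20 to 1.83, adjusted p = 0.0565) at 4 years, so neither passed. The latter passed without Y18M replicate 1 (1.09, adjusted p = 0.0171) or replicate 2 (1.08, adjusted p = 0.0171). Per 1000 counts of the gene there were 22.2, 40.0 and 24.1 back-splice reads at 6 months, 25.4, 78.3 and 39.9 at 18 months and 38.4, 40.5 and 35.1 at 4 years, ranges that overlapped between all ages.

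The most frequent HSPA4 circRNA, novel_circ_064113 in the deposited table, spans chromosome 7 from 44617835 to 44633612 on the plus strand, is of the table's exonic class with a spliced length of 556 bases, and held 900 reads, 64.6% of the gene's. It had 49, 45 and 52 reads at 6 months, 63, 258 and 111 at 18 months and 108, 128 and 86 at 4 years, and so was found in every library. The build of these coordinates was not settled.

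HSPA4L circRNA reads followed the gene. There were 0, 3 and 0 reads at 6 months, 49, 8 and 25 at 18 months and 38, 80 and 22 at 4 years. Pooled per age, the share of all back-splice reads was 21.4 times (95% counting interval 7.06 to 106) that of 6 months at 18 months and 46.1 times (15.5 to 226) at 4 years; the intervals cover counting error only. In edgeR's fit the reads rose by 4.40 ± 1.03 (adjusted p = 0.0175) and 5.45 ± 1.02 (adjusted p = 0.00241), sizes that depend on the prior count with so few reads at 6 months and that were 7.65 and 8.68 without Y6M replicate 2, the library with those reads. The 18-month call was lost without Y6M replicate 1 (adjusted p = 0.0717), Y6M replicate 3 (adjusted p = 0.0661) or Y18M replicate 1 (adjusted p = 0.065). Per 1000 counts of the gene the ratio was 3.81, 3.74 and 3.29 at 18 months and 2.13, 4.08 and 1.66 at 4 years, lower than for HSPA4 in each of these libraries. At 6 months it rests on 3 reads. Most frequent was novel_circ_019489, on chromosome 17 from 29853646 to 29862103 on the minus strand, exonic, 560 bases, with 116 reads (51.6%) and 0 at 6 months.

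For the 7 genes with few reads no circRNA held more than 6 reads, and each was found in 1 or 2 libraries. The most frequent were novel_circ_033260 of HSP90AA1 with 6, novel_circ_035846 of HSP90AB1, novel_circ_036076 of HSPA1L and novel_circ_008364 of HSPH1 with 5 each, novel_circ_007219 of HSPA5 with 4 and novel_circ_015060 of HSPA8 with 3. The 3 circRNAs of HSPA9 were tied at 2 reads each.

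**Figure D5:**
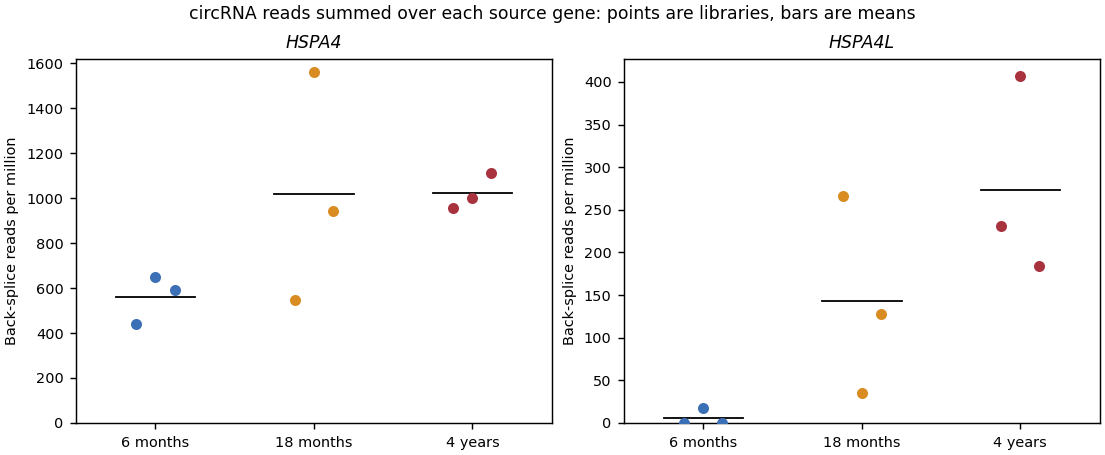
Back-splice reads per 1000000 (RPM) summed over the circRNAs of HSPA4 (left) and HSPA4L (right), with points for libraries and bars for the mean of an age. HSPA4 has reads at every age, from 442 to 1563 RPM, whereas HSPA4L has 0, 18.0 and 0 RPM at 6 months and 35.2 to 407 RPM later.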

How the data were processed

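Gene and circRNA values came from 9 ribosomal RNA-depleted testis libraries. Build UMD3.1 and the tools HISAT2 2.1.0, StringTie 1.3.4 and fastp 0.18.0 are named, with no role, per the submitters' processing notes. For the gene counter, the circRNA caller and the tests of the authors, the tool is not given in the sources used here. Per the file headers the authors deposited an estimated count and an FPKM value per gene and library, and a back-splice read count with an RPM value per circRNA. The authors also deposited log2 ratios and FDR values (adjusted p-value) for genes they called. Estimated counts, fractional in 3137 genes, were rounded to whole numbers.

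All 9 libraries entered 1 model with age as the only factor, in edgeR 4.0.16 under R 4.3.3 (filterByExpr, TMM, glmQLFit, glmQLFTest, 6 residual degrees of freedom, Benjamini-Hochberg over all features tested, threshold 0.05). circRNA reads were summed per source gene and fitted likewise. CPM is per 1000000 tested counts after TMM scaling, log2 CPM used a prior count of 2, and SE is the log2 fold change divided by the square root of F. FPKM served only to compare genes within an age and for shares within a library. Nothing but the labels says that the samples are separate animals, and the p-values rest on the spread between these samples. That spread was estimated once per gene over all 3 ages. The 18-month libraries therefore also enter the SE and p-value of 4 years against 6 months. For HSPA1L the SD of log2 CPM was 0.070 at 6 months, 2.20 at 18 months and 0.32 at 4 years. No 2 libraries were near copies of each other: at most 4.54% of tested genes had the same count in a pair of one age. The script was tested on simulated data.

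The genes, the partner lists and the marker lists were chosen with earlier results of these data known. Named are all 10 genes, the 2 partner genes per list, direction and comparison with the smallest p among those called, the 2 genes nearest to each chaperone with a symbol on 1 identifier, and the circRNA with most reads of each chaperone where 1 led. Of the partner symbols 89 were tested, and HSPA1B, BAG5 and HSFY2 were not. Alternatives were scaling by library size, DESeq2 1.42.0, no filter, only the ages compared, a replicate block, summed identifiers, and leaving out each library. A motif search in promoters was not run, and no sequence was printed, as no sequence table was used here.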

Additional observations from a re-analysis of the deposited data

How the results depend on the processing

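Over the 30 changes of single chaperone genes and their alternatives, 450 values in all, 424 kept their direction and side of the threshold, 5 lost the call, 13 gained it and 8 turned sign, and none of the latter was called. HSPA1L, HSPA2, HSPA4L, HSPA8 and HSP90AB1 kept their calls against 6 months under every alternative run. With library size alone 5 genes were called higher and 2 lower at 18 months, and 5 higher at 4 years against 6 months; with only the ages compared 5 were higher at 4 years. That scaling also moved the share of called genes that were higher at 18 months from 54.7 to 72.6%. Leaving out 1 library gave 3 to 5 genes higher at 4 years against 6 months and, between 18 months and 4 years, 0 to 2 higher and 0 to 2 lower. For all genes between 18 months and 4 years the count of 1 became 942 with DESeq2, 0 with only the ages compared and 0 to 5607 without single libraries. The cause of these shifts was not tested. Sign changes near 0 were those of HSPA4 without Y6M replicate 2 (-0.033 at 18 months, range over omitted libraries -0.033 to 0.17, and -0.049 at 4 years, range -0.049 to 0.19), of HSPA4 between 18 months and 4 years with DESeq2 (0.062) and without Y18M replicate 2 (0.037), Y18M replicate 3 (0.0075) or Y4Y replicate 1 (0.0093), where the range was -0.080 to 0.037, of HSPH1 with library size alone (-0.00070), and of HSP90AA1 without Y18M replicate 2 (-0.0024, range -0.0024 to 0.32). For circRNA reads, omitted libraries gave 3.60 to 7.65 for HSPA4L at 18 months, 0.94 to 1.17 for HSPA4 at 4 years against 6 months and -0.12 to 0.54 for HSPA4 between 18 months and 4 years.

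Of 588 counts of partner genes under alternatives 44 moved, either by over 1.5 times or to or from 0. With library size alone the genes higher at 18 months were 6 of HSP70 nucleotide exchange (1 lower), 10 HSP90 co-chaperones (0 lower) and 6 chaperonins and small heat shock proteins (3 lower), and at 4 years 7 chaperonins were higher and 1 HSP90 co-chaperone lower. DESeq2 called 8 HSP90 co-chaperones higher at 18 months; with only the ages compared 3 HSP90 co-chaperones and 4 ER genes were higher. Omitted libraries gave 3 to 7 HSP90 co-chaperones higher at 18 months and 3 to 8 at 4 years, 3 to 7 nucleotide exchange genes, 4 to 8 ER genes and 1 to 6 chaperonins at 18 months, and 2 to 6 chaperonins at 4 years. Without Y18M replicate 1 between 0 and 7 genes of a list fell between 18 months and 4 years and 0 to 3 rose.

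Replicate numbers name different animals, and same-numbered libraries did not deviate together (9 correlations from -0.14 to 0.10, beside -0.16 to 0.14 for the 18 other pairs). With the number as a replicate block 9439, 11939 and 1 genes were called in the 3 comparisons, and 3 chaperones were higher and 4 lower at 18 months, 3 and 3 at 4 years and 0 and 0 between 18 months and 4 years, with no call of a chaperone changed. At 6 months HSPA4L had 71 to 107 counts and HSPA1L 90 to 96 counts per library, the lowest of the 10 chaperones.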
